A study of Arabidopsis thaliana with 4 samples.

Results

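Plates TC17 to TC30 are a block of array probes whose deposited log ratio between DNA immunoprecipitated for trimethylated lysine 4 of histone H3 (H3K4me3) and input DNA lay well below the median of the array. The block was chosen by the probe IDs, set TC with plate numbers 17 to 30, and its limits were selected on the measured values themselves, as the plates of set TC with a low median. It holds 1124 probes of the 21691 that have a value, on 13 plates, each probe being a feature of a genome tiling array that is named by its plate and well. Because both ChIP replicates were used to choose the plates, the level of these probes is described and not tested, and every count of probes above or below the median is a description of the chosen block.

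H3K4me3 is set by methyltransferases of the SET domain family, which in Arabidopsis include the trithorax-like ATX proteins, and it marks the nucleosomes at the 5′ ends of genes that are being transcribed. Runs of sequence with few expressed genes carry little of it, as do silent transposons and the condensed chromatin around centromeres. In a ChIP-chip experiment the antibody-bound DNA and the input are labelled with different dyes and hybridised together, so that each probe reports the log ratio of the 2 channels.

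The material was untreated Arabidopsis thaliana seedlings of the Col-0 ecotype, 10 days old by the label and 10 to 11 days by the growth notes, kept in liquid 0.5X MS medium at 22 °C under a 16-hour photoperiod. Chromatin was precipitated with the antibody Upstate_07-473, and 4 arrays were hybridised, a dye-swapped pair for each of ChIP replicates I and II. All arrays belong to the same single group, with no mutant, treatment or unrelated antibody beside it, and the whole seedling was used, so the ratio is an average over its cell types. The labels do not say whether I and II came from separate cultures, and p-values therefore measure the spread between these samples, which may be technical. The table gives no genes, chromosomes or positions for its IDs, and no sequence or annotation is given here for that reason. Runs, peaks, edges and neighbours below are in ID order, well by well. Whether that order is the order on the genome is not given.

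Within each dye-swap pair the arrays held the same number for all 1124 probes, so each probe had 1 value per replicate and n = 2. The deposited median of these probes was -2.71 in replicate I and -1.53 in replicate II, against -1.91 and -0.90 over all probes. All values below are centred, that is, minus the replicate's median over all 21691 probes, and are in log units. The log base and the direction of the ratio were not stated in the labels or the table. If the ratio is IP over input, a low value is little H3K4me3. If it is input over IP, every statement on high and low turns round.

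Most probes of the block lay below the array median in both replicates. Their median was -0.80 in I and -0.63 in II, and the mean of the replicates had a median of -0.71 with an SD between probes of 0.50. Both replicates were below 0 for 939 of the 1124 probes (83.5%, against 40.5% of all probes), and the mean was above 0 for 121 (10.8%). From the 5th to the 95th percentile the means ran from -1.28 to 0.42, which is a narrow range beside -1.03 to 2.56 for all probes. The block thus lacked the long upper tail of the array.

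The limma test against 0, with Benjamini-Hochberg adjustment over all 21691 probes, placed 687 probes of the block (61.1%) below the median and 28 (2.49%) above it at an adjusted p under 0.05. Over the whole array 19.7% of probes were called below and 27.8% above. A mean of at least 1 was found for 8 probes (0.712%, against 21.7% of all probes), and a mean of -1 or less for 223 (19.8%, against 5.67%). The plates were picked for these same values, and nothing is read from the difference. The share at 1 or more differed between the replicates. It was 0.801% for replicate I alone, 2.85% for replicate II alone and 0.534% when both had to reach 1. On the low side 24.6% reached -1 in replicate I, 20.9% in replicate II and 11.9% in both, against 5.58%, 9.08% and 2.8% of all probes, where replicate II had the larger share.

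**Figure D1:**
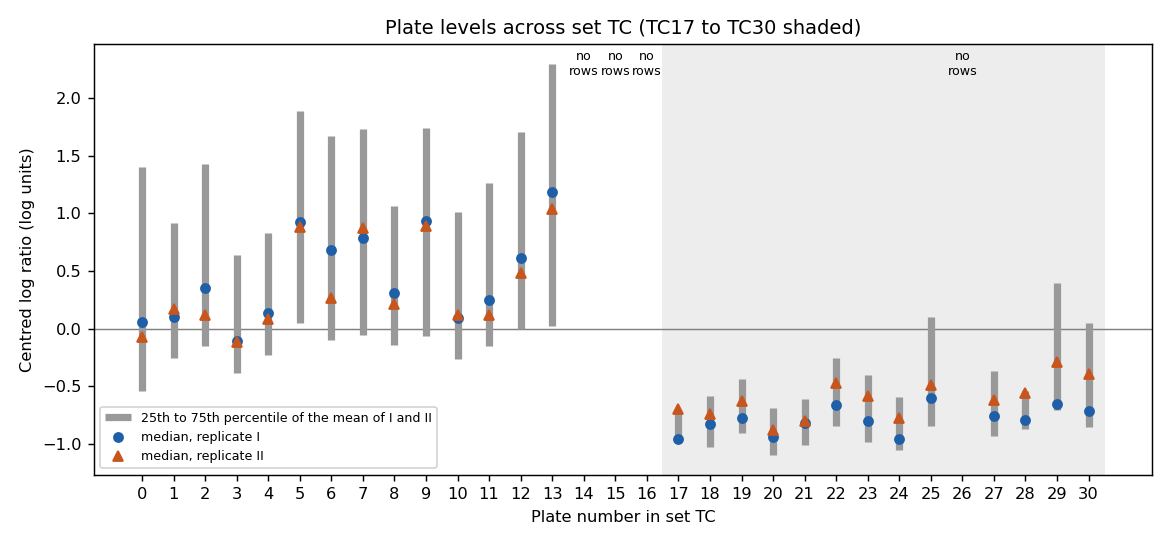
Plate medians of set TC for replicates I (circles) and II (triangles) against plate number, with bars from the 25th to the 75th percentile of the mean of both, in centred log units. Plates TC17 to TC30 are shaded and all their medians lie under 0, between -0.96 and -0.29, while TC13, the last plate before the gap, stands at 1.19 and 1.03.

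At its near end the block is set off by a gap in the IDs. Plate TC13, with 34 probes, had a median of 1.17 for the mean of both replicates. No row of the table carries an ID of plates TC14 to TC16, and TC17, with 60 probes, had a median of -0.855. The last 12 probes of TC13 spanned -0.82 to 1.97 with a median of 0.30, and the first 12 of TC17 spanned -1.24 to -0.45 with a median of -0.85. At the other end TC30 had a median of -0.56, and TD01, the plate listed next in ID order, 0.02. The plates at that end were less low than TC17 to TC21, which had a median of -0.81. The last 12 probes of TC30 had one of -0.49, and TC29 and TC30 together one of -0.50. The level did not climb steadily to the edge, as TC29 had -0.48, and TC22 and TC25 inside the block had -0.58 and -0.60. Of the 13 plates, 12 had a median under -0.3 in both replicates. TC29 missed that limit in replicate II alone, at -0.29, with -0.65 in replicate I.

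The 14 plate numbers offer 1344 well positions, of which 1133 are listed in the table and 1124 have a value. Plate TC26 has no listed well. On the listed plates another 115 wells are missing, in 1 unbroken block on each of 4 plates: A01 to C12 on TC17 (36 wells), G06 to H12 on TC25 (19), F11 to H12 on TC28 (26) and F03 to H12 on TC30 (34). The missing wells stand at the start of TC17 and at the ends of the other 3 plates. A further 9 listed wells have no value on any array, namely A01, B06, C08, D10 and F10 of TC21, A07, G02 and G04 of TC25, and D06 of TC28. That is 0.794% of the listed wells, against 0.322% of all listed plate-and-well IDs, 0% in TC00 to TC13 and 0.168% in TA39 to TA51. These shares rest on a handful of wells and were not tested. The other 8 plates had a value in all 96 wells, and TC21 in 91.

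Plates TC17 to TC21 were the part with the smallest share of probes above 0. Over their 439 probes the median was -0.81, only 12 probes (2.73%) had a mean above 0, none reached 1 and none was called above the median by limma (2 at an unadjusted p under 0.05). TC17 had the tightest values, with an interquartile range of 0.25 log units and 53 of 60 probes called below. Its highest probe, TC17E01, had -0.71 in replicate I and -0.07 in replicate II. TC20 had the lowest median of the block for the mean of both, -0.90, and in replicate II, -0.88. In replicate I it had -0.94, just above TC17 at -0.96 and TC24 at -0.95. Its highest probe, TC20F09, stood at -0.12 and 0.03. No probe of TC17 or TC20 had a mean above 0.

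The plates beside them had a few probes at the array median. On TC18 the median was -0.80 and the highest probe, TC18H08, had 0.44 (I) and 0.64 (II; limma adjusted p = 0.069). On TC21 the median was likewise -0.80, and its highest probe, TC21A02, had 0.13 and 0.43. TC19 was the mildest of the 5, at -0.67. Row G had the highest row median, -0.31 over 12 wells, against -0.85 for row E and -0.51 for row F. No well of row G was above 0, and its highest mean was -0.06. The 5 wells of TC19 above 0 lay in rows A, B, F and H. Row G had -0.18 in replicate I and -0.46 in replicate II. In replicate II rows F and H were no lower than row G, at -0.45 and -0.35. The highest probe of TC19, TC19H03, stood at 0.23 and 0.27. None of these 3 highest probes passed the test.

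Plates TC22 to TC25 held 7 of the 8 probes with a mean of at least 1. Over their 362 probes the median was -0.68, 48 probes (13.3%) were above 0 and 17 were called above by limma. The median was -0.58 on TC22, -0.68 on TC23, -0.87 on TC24 and -0.60 on TC25. On TC24, 4 of the 7 probes above 0 lay in a short peak in its last row, and limma called 70.8% of its probes below, against 88.3% on TC17. TC23 had no probe at 1, and its highest, TC23E03, had 0.73 (I) and 1.10 (II; limma adjusted p = 0.00705).

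After the empty TC26, plates TC27 and TC28 had medians of -0.68 and -0.67, and 14 of their 165 probes (8.48%) were above 0. Plates TC29 and TC30 were the least low, with medians of -0.48 and -0.56, 47 of 158 probes (29.7%) above 0 and 12 (7.59%) at -1 or less. Shares above 0 were 28.4% on TC25, 31.2% on TC29 and 27.4% on TC30, and 5.94% over the 892 probes of the other 10 plates. On these 3 plates the upper quartile lay above 0, and on the other 10 it lay below. The 3 plates reached those shares through differently placed wells, described below.

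**Figure D2:**
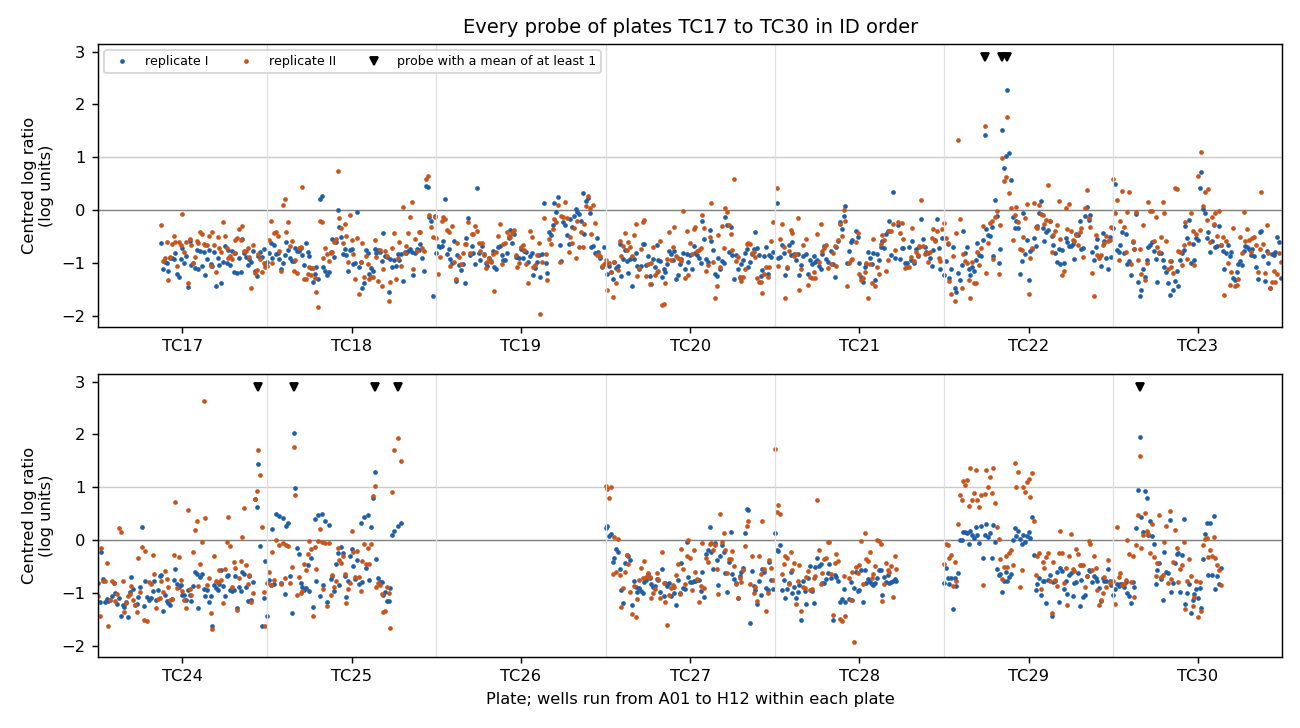
Centred log ratio of every probe in ID order, replicate I in blue and replicate II in orange, with TC17 to TC23 above and TC24 to TC30 below. Triangles mark the 8 probes with a mean of at least 1. The band of points near -0.8 is broken by short peaks on TC22, TC24, TC25 and TC30 and by a run on TC29 where replicate II lies about 0.93 above replicate I.

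The 8 probes at 1 or more lay on 4 plates, TC22, TC24, TC25 and TC30, and all 8 were called above by limma. That call nearly follows from the limit, since limma called 4706 of the 4714 array probes at 1 or more above. Their means ran from 1.10 to 2.02. They stood high against the block. Against the array they were high but not extreme: 21.7% of all probes reached 1, and the highest of the 8 ranks 2117th among the 21691 means. The probe just under the limit was TC25G01, with a mean of 0.94, and 37 probes lay between 0.5 and 1.

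The highest was TC22D01, with 2.27 (I) and 1.77 (II; mean 2.02, limma adjusted p = 2.76e-05). It is the summit of an unbroken run of 6 probes above 0, from TC22C10 to TC22D03. TC22C10 at the near edge had 1.52 and 0.99, and its neighbour before the run, TC22C09, had -0.73 and -0.28. Between the 2 high probes TC22C11 had 0.79 and 0.55, and TC22C12 had 1.03 and 0.62. Past the summit TC22D02 had 1.07 and 0.33 and TC22D03 had 0.58 and 0.03. On the near side the values dropped from the summit to TC22C11, rose again at TC22C10 and then fell in a single step, while on the far side they fell off over 2 probes. Replicate I was above replicate II at all 6.

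TC22B12, 10 wells before that run, was high by itself. It had 1.41 (I) and 1.59 (II; limma adjusted p = 0.000214). The probe before it, TC22B11, had -0.56 and -0.30, and the probe after it, TC22C01, had -0.36 and -1.19. Neither neighbour shared its level in either replicate.

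TC24H08 topped a run of 4 at the end of TC24. It had 1.43 (I) and 1.71 (II; limma adjusted p = 0.000158). Ahead of it TC24H06 had 0.77 in both replicates and TC24H07 had 0.63 and 0.92. Behind it the replicates parted. TC24H09 had -0.12 in I and 1.23 in II, and TC24H10 had -1.62 and 0.25, so the far edge of this peak differed between the replicates.

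On TC25 the highest probe was TC25B04, with 2.03 (I) and 1.76 (II; limma adjusted p = 3.53e-05). TC25B05 after it had 0.98 and 0.85, while TC25B03 before it had -1.39 and -0.51. In ID order this peak was therefore 2 probes wide with a sharp near edge. TC25F02 had 1.28 and 1.02 (limma adjusted p = 0.0016) and closed a run of 3 above 0, after TC25E12 with 0.24 and -0.07 and TC25F01 with 0.79 and 0.84. The next probe, TC25F03, was back at -0.36 and -0.90. The eighth probe, TC25G03, differed from the rest: it had 0.27 (I) and 1.93 (II; limma adjusted p = 0.0177), and its mean rested on replicate II.

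TC30B04 had 1.95 (I) and 1.60 (II; limma adjusted p = 6.49e-05). It lies in a run of 10 probes above 0, TC30B02 to TC30B11, whose median was 0.40 in replicate I and 0.14 in replicate II. TC30B03 had 0.96 and 0.47 and TC30B05 had 0.43 and -0.15. Only 3 of the 10 were called above by limma, so that most of this run stood near the array median and was raised only against its own plate.

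Of the 37 probes between 0.5 and 1, replicate II was the higher at 30, and 24 reached 1 in replicate II against 2 in replicate I. Plate TC29 gave 17 of them. Over the whole block 32 probes reached 1 in replicate II and 9 in replicate I. Of the 32, 16 lay on TC29, where no probe reached 1 in replicate I.

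The TC29 probes formed a compact area. All 30 probes of TC29 with a mean above 0 lay between wells A10 and E04, in 4 runs of 13, 7, 3 and 7 probes. In replicate I these 30 spanned -0.35 to 0.44 with a median of 0.09, and in replicate II 0.36 to 1.46 with a median of 1.0. Replicate II was the higher at all 30. Between the runs lay TC29B11, with -0.33 and -0.85, the 10 wells from C07 to D04, with medians of -0.65 and -0.33, and the pair TC29D08 and TC29D09, with 0.02 and -0.90 and with -0.08 and -0.56. From E05 to H12 the 44 probes had a median of -0.77 in replicate I and -0.54 in replicate II. The 30 probes thus lay near the array median in replicate I and above it in replicate II. They were picked for a mean above 0, so a higher mean than the other wells of the plate is fixed by that choice. limma called 7 of the 30 above. The highest, TC29E03, had 0.44 and 1.28 (limma adjusted p = 0.0168).

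The same relation of the replicates was met at the ends and starts of neighbouring plates. TC25G01, TC25G03 and TC25G05, the last valued wells of TC25, had 0.18 to 0.32 in replicate I and 1.5 to 1.93 in replicate II. TC27A01 to TC27A04, the next valued wells in ID order, had 0.08 to 0.26 and 0.80 to 1.03. TC28A01, the highest probe of its plate, had 0.13 and 1.73 (limma adjusted p = 0.0348), and TC28A02 to TC28A04 followed it in a run of 4 above 0. Across the array a replicate II value at least 0.6 over replicate I together with a mean above 0 was found for 8.71% of probes, and in the block for 51 probes (4.54%), of which 29 were on TC29. TC29 ranked 5th of 231 plates by that count. These limits were set after the values had been seen.

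**Figure D3:**
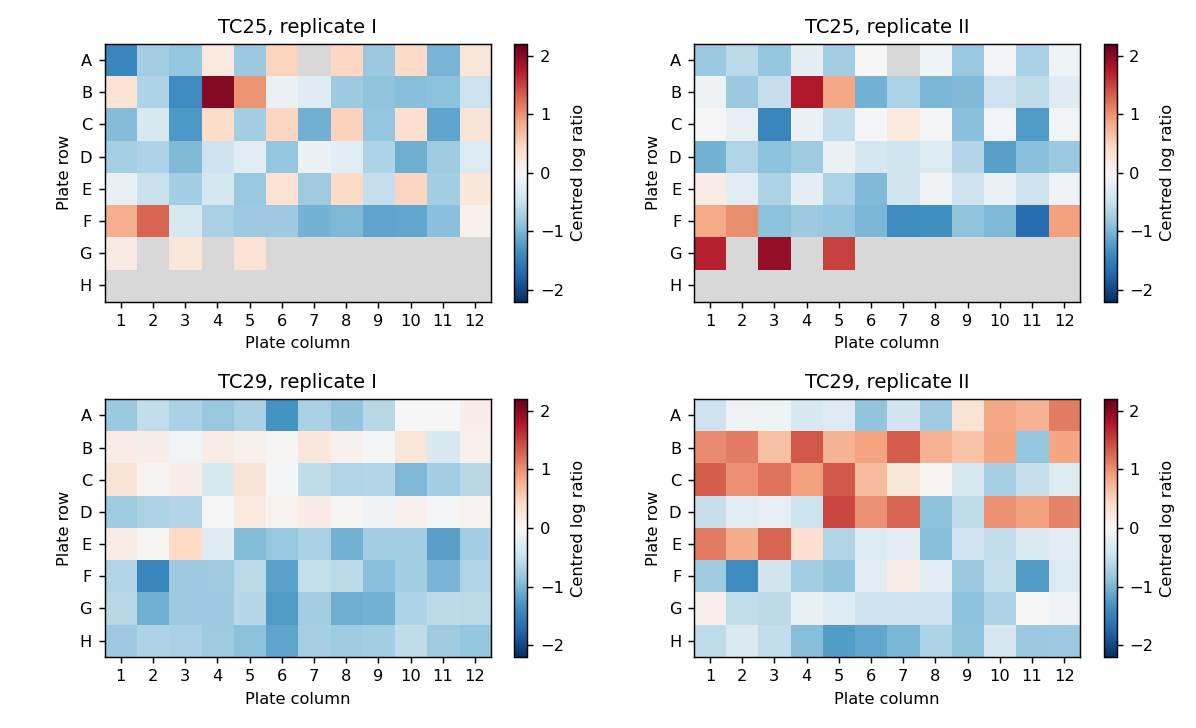
Centred log ratios of plates TC25 (top) and TC29 (bottom) in plate layout, replicate I left and replicate II right, on 1 colour scale in log units; grey wells are not listed or have no value. In replicate I of TC25 the even columns 4 to 12 of rows A and C stand above the odd columns 3 to 11. In row E the even columns 8 to 12 stand above the odd columns 7 to 11. On TC29 the wells from A10 to E04 are high in replicate II, with all but 13 of those 43 above 0 in the mean.

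On TC25 high and low wells alternated in parts of rows A, C and E. In rows A and C the even columns 4 to 12 held 10 probes with 0.22 to 0.50 in replicate I (median 0.41) and -0.22 to 0.01 in replicate II (median -0.06). The 9 valued probes in the odd columns 3 to 11 between them had -1.27 to -0.77 in replicate I (median -0.86) and a median of -0.83 in replicate II. The even and odd wells did not overlap in replicate I. In replicate II one odd well, at 0.21, was above every even one. In row E the even columns 8 to 12 had 0.24 to 0.48 in replicate I and -0.15 to -0.07 in replicate II, and the odd columns 7 to 11 had -0.79 to -0.53 and -0.46 to -0.40. The even well before these, TC25E06, had 0.32 and -0.97. Row D, which lies between rows C and E, had no well as high in replicate I as these even wells. Its columns 3 to 12 ran from -1.08 to -0.12 in replicate I and from -1.19 to -0.15 in replicate II. They were not split into even and odd. In row B, between rows A and C, the odd well TC25B01 had 0.32 and -0.11, values like those of the even wells. None of the 13 even wells was called above by limma (0 at an unadjusted p under 0.05). These wells were picked after their values had been seen.

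Values like those of the even wells were also met on TC30. TC30B05 had 0.43 in replicate I and -0.15 in replicate II, TC30D05 had 0.40 and -0.03, TC30E08 had 0.33 and -0.19, and TC30E10 had 0.46 and 0.05. Replicate I at 0.2 to 0.6 and at least 0.2 over replicate II was found for 6.59% of all probes and for 35 probes of the block (3.11%), 15 on TC25 and 7 on TC30. TC25 ranked 8th of 231 plates and TC30 79th, where the median plate had 6 such probes. The combination is therefore common on the array, and in the block TC25 alone lay well above the median plate. These limits, too, were set with the values known.

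**Figure D4:**
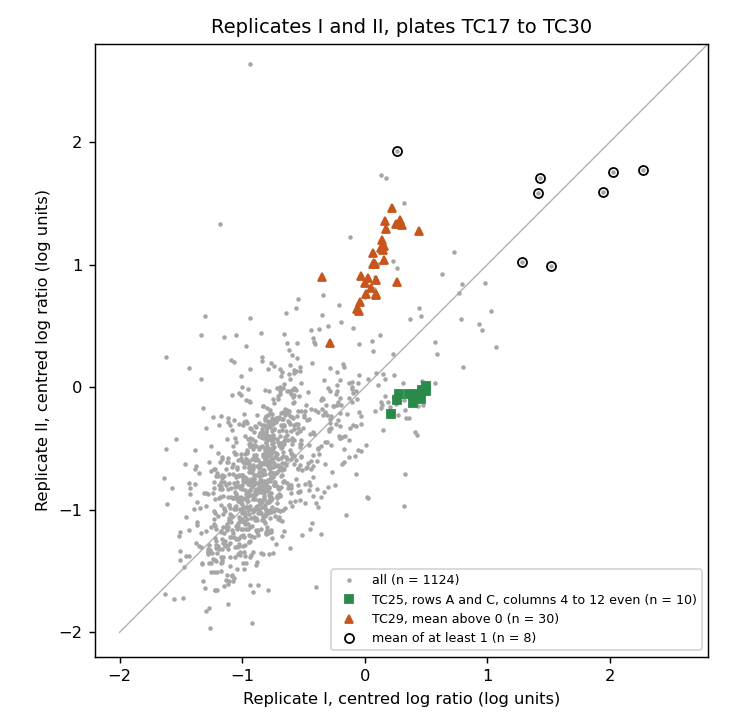
Replicate II against replicate I for the 1124 probes, both in centred log units, with the line of equal values. The 10 even-column wells of TC25 rows A and C (squares) and the 30 TC29 wells above 0 (triangles) form tight groups on opposite sides of the line. Of the 8 probes with a mean of at least 1 (open circles), 7 have II minus I between -0.53 and 0.28. The other, TC25G03, has 1.66.

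The lowest probes were scattered over 7 plates. TC24F06 was the lowest, with -1.63 (I) and -1.69 (II; limma adjusted p = 8.98e-05), and TC18F10 followed with -1.56 and -1.73. Next came TC19E12 with -1.26 and -1.97, TC22A07 with -1.48 and -1.72 and TC18C06 with -1.30 and -1.83. The 10 lowest had means of -1.66 to -1.45 and were all called below by limma, as were all 1229 array probes at -1 or less. The lowest of them ranks 21st from the bottom of the array, whose lowest mean was -2.46. TC22A07 lies on the same plate as the highest probe, 30 wells before it.

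Probes at -1 or less seldom formed long runs. The 223 such probes made 140 runs, of which 95 held 1 probe, 25 held 2 and 20 held 3 or more. The longest was 6 probes, TC21E01 to TC21E06, with a median of -1.05 in replicate I and -1.25 in replicate II. The 121 probes above 0 made 56 runs, 36 of them single probes and 12 of 3 or more, and the longest was the 13 of TC29A10 to TC29B10. Wells without a value end a run in these counts.

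Neighbouring probes were alike over several wells. Over 1112 pairs of adjacent wells the means correlated at 0.53, and it was 0.42 at a distance of 2, 0.33 at 3 and 0.13 at 12. All pairs share both libraries and all but 9 share a plate, and the values are descriptions. Adjacent wells correlated at 0.51 in I and 0.49 in II, and at 0.40 when the first well was read in I and the second in II. By plate the correlation of adjacent wells ran from -0.16 on TC17 to 0.76 on TC29. TC17 had the smallest interquartile range, 0.25, while TC28, with 0.33, had a correlation of 0.43. A link with spread was not tested. The correlation at a distance of 2 exceeded that at 1 on TC25 (0.24 and 0.16) and on TC17 (0.04 and -0.16).

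At 9 plate ends inside the block both the last and the first well had a value. The size of the step ran from 0.04 at TC17H12 to TC18A01 to 1.77 at TC27H12 to TC28A01, with a median of 0.20. Position on the plate moved the level little: medians by row ran from -0.81 to -0.65 and by column from -0.81 to -0.58, the highest being column 12. In replicate II rows A, C, E and G had a median of -0.59 and rows B, D, F and H -0.67, while in replicate I both were at -0.80.

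The replicates followed each other less closely here than on the array as a whole. Across probes, which are not replicates, Pearson's correlation of I and II was 0.68 and Spearman's 0.64, against 0.88 and 0.83 over all probes, and by plate Pearson's ran from 0.46 on TC17 to 0.87 on TC29. The SD of the difference was 0.45, against 0.56 for all probes, so that the lower correlation went with a narrower range of levels and not with larger differences. Signs differed at 115 probes (10.2%), against 18.9% of all probes and 10.7% in TA39 to TA51. A smaller share follows from the choice of low plates and is not read as closer agreement. The median of II minus I was 0.12 over the block. By plate it was above 0 on 11 of 13 plates and below 0 on TC21 (-0.03) and TC25 (-0.07). The plate's median in replicate II was above its median in replicate I on all 13.

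A few probes differed far more than that. TC24F01 had -0.94 in replicate I and 2.63 in replicate II, a difference of 3.57, and TC22A09 had -1.18 and 1.33. TC20G02 had -1.30 and 0.58, and TC24H10 and TC23C12 differed by 1.87 and 1.76. limma called none of these 5 in either direction (0 in each direction at an unadjusted p under 0.05). In the other direction the gaps were smaller. TC25E06 had 0.32 in I and -0.97 in II, and the next 4, TC24H12, TC19G12, TC28D10 and TC19G08, had a difference of II minus I between -1.24 and -0.93.

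Plates TC00 to TC13, the other part of set TC, served as a contrast. Their 1282 probes had a median of 0.28, a 90th percentile of 2.41 and 430 probes at 1 or more, against 0.03 for the 90th percentile of the block. The medians of single plates ran from -0.14 to 1.17 in TC00 to TC13 and from -0.90 to -0.48 in TC17 to TC30. That they did not overlap is fixed by the choice of the block as the low plates of set TC. limma called 111 of the 1282 (8.66%) below and 531 (41.4%) above. Between neighbours at a distance of 1 the correlation was 0.55, close to the 0.53 of the block, but at a distance of 3 it was 0.10 against 0.33. Runs above 0 were longer in TC00 to TC13, up to 26 probes, with 105 of 170 runs holding 3 or more. There 63.6% of probes were above 0, against 10.8% in the block, so longer runs go with the level. In those plates the median of II minus I was -0.11, the opposite sign to the block. Among probes with a mean between -1.2 and -0.4 it was 0.14 in the block (771 probes), 0.11 in TA39 to TA51 (851), -0.14 in TC00 to TC13 (185) and -0.14 over all 5229 such probes outside the block, TA39 to TA51 included. None of these differences was tested.

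Plates TA39 to TA51, a stretch of set TA that is also low by choice, were much like the block. Their 1192 probes had a median of -0.76, quartiles of -0.99 and -0.48 against -0.95 and -0.42, and a 10th percentile of -1.16 against -1.15. limma called 754 (63.3%) below and 32 (2.68%) above. At -1 or less were 287 probes (24.1%), above 0 were 104 (8.72%), and 22 (1.85%) reached 1. The upper ends differed in height: the highest probe was at 3.35 in TA39 to TA51 and at 2.02 in the block, and both replicates reached 1 at 19 probes against 6. II minus I had a median of 0.09, and its plate median was above 0 on 11 of 13 plates, the same count as in the block. The runs were alike too, with 45 of 62 runs above 0 holding a single probe and a longest run of 12. As both stretches were chosen as low, their likeness in level is fixed by the choice, and no test was made of where they differ.

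**Figure D5:**
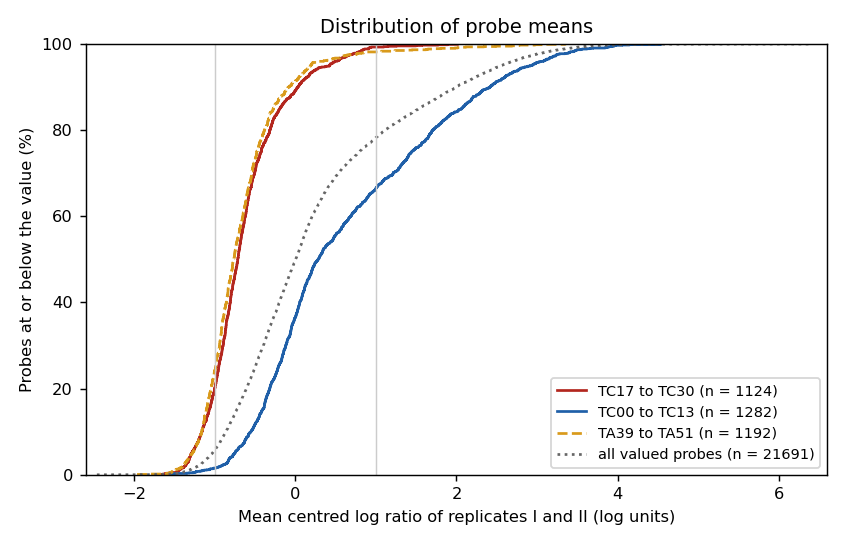
Cumulative share of probes (%) against the mean centred log ratio of replicates I and II, for TC17 to TC30, TC00 to TC13, TA39 to TA51 and all 21691 valued probes, with vertical lines at -1 and 1. The curves of TC17 to TC30 and TA39 to TA51 nearly coincide and reach 90% at 0.03 and -0.08, where TC00 to TC13 does so at 2.41.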

How the data were processed

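ChIP-chip values came from a table of 4 arrays: IP and input of ChIP replicates I and II, 15 µg of each sample per the labels, amplified and labelled with Cy3 and Cy5. The authors deposited 1 log ratio per array and probe, taken here as log2. Its base, centring and direction, the normalisation, the scanner software and the genome build are not given in the labels or file header. Of 21800 rows, 21691 had values. Arrays of a dye-swap pair were identical and counted as 1 replicate.

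Each replicate was centred on its median. The mean was tested against 0 with limma 3.58.1 (lmFit, eBayes, two-sided, estimated prior degrees of freedom 10.5) in R 4.3.3. P-values were Benjamini-Hochberg adjusted across the 21691 probes, with a threshold of 0.05. It was tried on simulated data. Other values were computed in Python 3.11.15. Without intensities no signal-to-background ratio can be given. The number of arrays limits the precision.

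The members, lists and limits were chosen with earlier results of these data known. Probes were named by rule: all with a mean of at least 1 and up to 2 neighbours on each side, the 10 lowest with 1 sign in both replicates, the 5 largest differences each way, and the extremes of each plate. Wells of the TC25, TC29 and TC30 patterns were named after their values were seen. Alternatives changed the centring, scaling, thresholds, prior, plates or replicates.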

Additional observations from a re-analysis of the deposited data

How the results depend on the processing

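Recomputing the results under the alternatives gave 59 values. Of these, 29 stayed within 1.5 times the count or within its spread, taken as the SD between the replicates or, for their correlation and difference, between plates. The number of probes called above fell from 28 to 9 at an adjusted p under 0.01, 8 with a mean of at least 1 in size, 14 with prior degrees of freedom fixed at 4 and 0 without centring (limma; 0 at an unadjusted p under 0.05), and rose to 58 with centring on the mode. The number below, 687, was 400, 223, 438 with the mode and 1037 without centring. The share at 1 or more, 0.712%, was 4.0% with the limit at 0.5, and 0.801% to 2.85% with 1 replicate left out. The share at -1 or less, 19.8%, was 7.21% with the mode, 94.8% without centring, 24.2% with the median taken outside the block, 70.4% at -0.5, 0.534% at -1.5, 11.9% with both replicates required, 23.7% in TC17 to TC25 and 20.9% to 24.6% with 1 replicate left out. The lowest plate median, -0.90, was -0.68 with the mode, -2.31 without centring and -0.96 to -0.88 with 1 replicate left out. The median plate, -0.68, was -0.46 and -2.08, and the highest, -0.48, was -1.88 without centring. Shifts without centring and at other limits follow from their construction. All plate medians stayed below 0 with the mode and without centring. The median of II minus I, 0.12, turned to -0.054 once plate medians were removed, which takes out the plates' own offset. The correlation with the next probe, 0.53, was 0.48 without plate medians, 0.45 in TC17 to TC25 and 0.49 to 0.51 with 1 replicate left out. For the other moves the cause was not tested. A single replicate has no limma test. No paired analysis was possible because there is 1 group.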
